A study of Mus musculus with 9 samples.

Results

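The lysosomal set holds 36 genes that were chosen by name for what their products are known to do: 7 cysteine proteases, 3 other proteases, 10 glycosidases, 2 sulfatases, 6 proteins that handle lipids, 6 membrane proteins, the transcription factor Tfeb and the progranulin gene Grn. The 36 genes, like the other lists below, were chosen with earlier results of these data known. Every probe set (the group of short probes with which the array reads one transcript) annotated to one of the 36 genes was taken. Of the 12393 genes with a named probe set, 34 belonged to the set, with 63 probe sets between them. Arsb and Cd63 were not analysed here. A total of 32 of the 36 genes passed a filter on dim signals and were tested, among 8965 tested genes. Each gene is represented by its probe set of highest mean signal, and all signals are given on the authors' linear scale.

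RNA was measured on 9 Affymetrix mouse arrays, 3 for each of 3 kinds of sorted hematopoietic cell. Granulocyte-macrophage progenitors (GMP) were taken as the normal counterpart, committed bone marrow cells that give rise to granulocytes and macrophages. L-GMP were GMP-like cells sorted from leukemic bone marrow, in which the oncogene was MLL-AF9, the fusion of Kmt2a (MLL) with Mllt3 (AF9). The titles of the last 3 arrays are a code and their source label is L-GMP; they are called L-GMP-derived and were read as cells grown in culture from L-GMP, because the study's design text names that kind. If this reading is wrong, every statement about these 3 arrays changes its meaning. About 50000 sorted cells and about 50 ng of total RNA went into each array. The sources used here do not give strain, age or the way in which the fusion gene was introduced. Whether replicate arrays stem from different mice or cultures is not stated either, and the p-values therefore reflect only the spread between arrays, which may be technical.

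Lysosomes are acidic, membrane-bound compartments in which hydrolases break down proteins, glycans and lipids that arrive by endocytosis, phagocytosis or autophagy. Most of these enzymes are tagged with mannose 6-phosphate in the Golgi apparatus and carried to the lysosome by receptors, while heavily glycosylated proteins such as Lamp1 and Lamp2 line its membrane. Tfeb and its relatives of the MiT/TFE family bind a short palindrome around the E-box CACGTG, known as the CLEAR element, near many lysosomal genes, and are held in the cytoplasm when mTORC1 at the lysosomal surface is active. Lysosomal proteases and glycosidases are abundant in cells of the granulocyte and macrophage lineages, where some of them are also stored in granules.

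Because the CLEAR element is a known sequence feature shared by many such genes, their promoters were searched for it. RefSeq promoters of the GRCm38.p6 assembly, 300 bases each, were listed for 32 of the 36 genes, 37 promoters in all; Asah1, Ctsb, Ctsh and Npc1 had no entry. The E-box CACGTG occurred in 10 of the 37 (27.0%), against 2349 of all 32851 promoters (7.15%). The genes were Ctsa, Ctsd, Ctsl, Gaa, Gla, Glb1, Lamp1, Lgmn, Mcoln1 and Naglu. TCACGTGA, which contains that E-box, occurred in 4 of 37 (10.8%), against 320 of all promoters (0.974%), and the genes were Ctsa, Ctsd, Gla and Mcoln1. The same 8 bases with a G before and a C after them occurred in 0 of the 37 and in 107 promoters in all (0.326%). Each of these motifs reads the same on both strands. The stretches that follow were chosen to show these matches in genes with different profiles below, and capitals mark the E-box. Lamp1 lies at chr8:13159091-13159160 (forward strand), Ctsd at chr7:142387888-142387947 (reverse strand), Ctsa at chr2:164833743-164833772 (forward strand), Gla at chrX:134601176-134601245 (reverse strand), Mcoln1 at chr8:3500429-3500488 (forward strand) and Naglu at chr11:101069994-101070043 (forward strand), all upstream of the listed start and written 5′ to 3′ on the gene's strand.
Lamp1: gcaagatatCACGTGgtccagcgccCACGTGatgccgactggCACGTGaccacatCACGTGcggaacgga
Ctsd: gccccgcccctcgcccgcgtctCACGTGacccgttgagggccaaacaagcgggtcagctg
Ctsa: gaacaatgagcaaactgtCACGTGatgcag
Gla: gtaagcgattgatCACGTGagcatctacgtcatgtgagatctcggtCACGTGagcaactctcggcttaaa
Mcoln1: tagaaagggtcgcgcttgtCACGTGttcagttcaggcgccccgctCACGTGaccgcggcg
Naglu: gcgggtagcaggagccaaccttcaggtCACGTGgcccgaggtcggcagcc
A match is a description of these letters, not evidence of binding, and no binding was measured here. The Lamp1 stretch holds 4 E-boxes within 70 bases, and those of Gla and Mcoln1 hold 2 each. Of the 9 tested genes with an E-box, 4 (Ctsa, Ctsd, Lamp1 and Naglu) were higher and 0 lower in L-GMP than in GMP, and 6 (the same 4 with Ctsl and Gla) were higher and 0 lower in L-GMP-derived cells, by the tests given below. Of the 20 tested genes with a listed promoter and no E-box, 10 were higher and 3 lower in L-GMP, and 7 higher and 2 lower in L-GMP-derived cells. Over all tested genes 13.1% were higher and 12.8% lower in L-GMP than in GMP, and 13.4% and 10.7% in L-GMP-derived cells. The difference between genes with and without an E-box was not tested.

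The arrays had median signals between 157 and 168. Array pairs within a group had Pearson correlations of 0.958 to 0.991 over the tested probe sets. L-GMP-derived replicate 1 stood apart: 599 and 492 probe sets differed at least 2-fold between it and replicates 2 and 3 of its group, against 35 between those replicates. It was also the array farthest from its group's mean for 24 of the 32 tested lysosomal genes, so member counts are also given without it, and members whose call then changed are named. Among members called in both settings, the largest shift on leaving it out was that of Ctsa against GMP, from a log2 difference of 1.14 to 0.90, and that of Lamp2 against L-GMP, from -0.60 to -0.51. The granule protease genes Elane, Prtn3 and Ctsg, which mark granulocyte-macrophage progenitors, were bright on all 9 arrays. Of 12 markers of the progenitor gate, 3 were higher and 3 lower in L-GMP than in GMP, against 13.1% and 12.8% of all tested genes. The higher ones included Fcgr2b (log2 difference 0.79), and the lower ones were Cd34, Ctsg and Cebpa. Relative to L-GMP, 2 of the 12 markers were higher and 7 lower in L-GMP-derived cells, against 16.6% and 14.1% of all tested genes. Relative to GMP, 1 was higher and 4 were lower in L-GMP-derived cells, against 13.4% and 10.7%. The lower ones included Mpo, Csf1r and Cd34, with log2 differences of -3.57, -3.52 and -3.18 from GMP in L-GMP-derived cells. Kit gave 110.2, 105 and 67.0 there against 816 ± 41.7 in GMP (SD, n = 3, as for every mean below). The ratio of 3′ to 5′ signal of the beta-actin control probe sets, a measure of RNA length, was 4.87 to 5.56 in L-GMP, 6.99 to 8.12 in GMP and 6.93 to 7.18 in L-GMP-derived cells. The same ratio of the Gapdh control overlapped between the groups, with 7.08 to 8.77 in GMP, 6.17 to 11.6 in L-GMP and 5.86 to 9.22 in L-GMP-derived cells. The part of RNA length in the results below was not tested.

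In L-GMP, 16 of the 32 tested lysosomal genes were higher than in GMP and 3 were lower, at an adjusted p under 0.05 with limma over all tested probe sets. Over all tested genes 13.1% were higher and 12.8% lower. The median log2 difference of the 32 genes was 0.36, against -0.01 over all genes. Signals of the 2 groups did not overlap for 27 of the 32 genes, against 46.9% of all genes. Neu1 and Smpd1 had no GMP array above the filter and passed it only through the other groups. Ctsh and Neu1 differed most, followed by Ctsa, Naglu, the lower Scarb2 and Man2b1, the 6 genes called with a change of at least 2-fold. Leaving L-GMP-derived replicate 1 out of the fit, which changes only the estimate of the spread here, added Asah1, Grn, Idua and Npc2 to the genes called higher.

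In L-GMP-derived cells, 13 of the 32 genes were higher than in GMP and 4 were lower, against 13.4% and 10.7% of all genes; the lower ones were Ctsb, Ctsh, Lipa and Scarb2. The median log2 difference was 0.11, against 0.00 over all genes, and 22 of the 32 genes had groups that did not overlap, against 41.0% of all genes. Without L-GMP-derived replicate 1 the counts were 12 higher and 5 lower, against 18% and 12.3% of all genes: Tpp1 was no longer called and Psap was called lower. This comparison and the one before share the 3 GMP arrays.

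Between the leukemic kinds, more lysosomal genes were lower than higher in culture. Relative to L-GMP, 4 of the 32 genes were higher in L-GMP-derived cells and 9 were lower, against 16.6% and 14.1% of all genes, with a median log2 difference of -0.19 against -0.004 over all genes. The share of lower members lay above that background, and that of higher members was near it. With a minimum of 1.5-fold, 3 were higher and 4 lower, against 9.76% and 8.68% of all genes. The groups did not overlap for 16 of the 32 genes, against 41.2% of all genes. Without replicate 1 of the cultured cells 5 genes were higher and 13 lower, against 21.3% and 16.9% of all genes. Ctsa, Grn, Idua, Psap and Tpp1 were then also called lower and Manba higher, while Neu1 was no longer called. By group mean, L-GMP had the highest signal for 19 of the 32 genes, L-GMP-derived cells for 9 and GMP for 4 (Ctsc, Ctss, Psap and Scarb2). GMP had the lowest signal for 18 genes. Over all tested genes L-GMP was highest for 34.3% and GMP lowest for 31.5%.

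**Figure D1:**
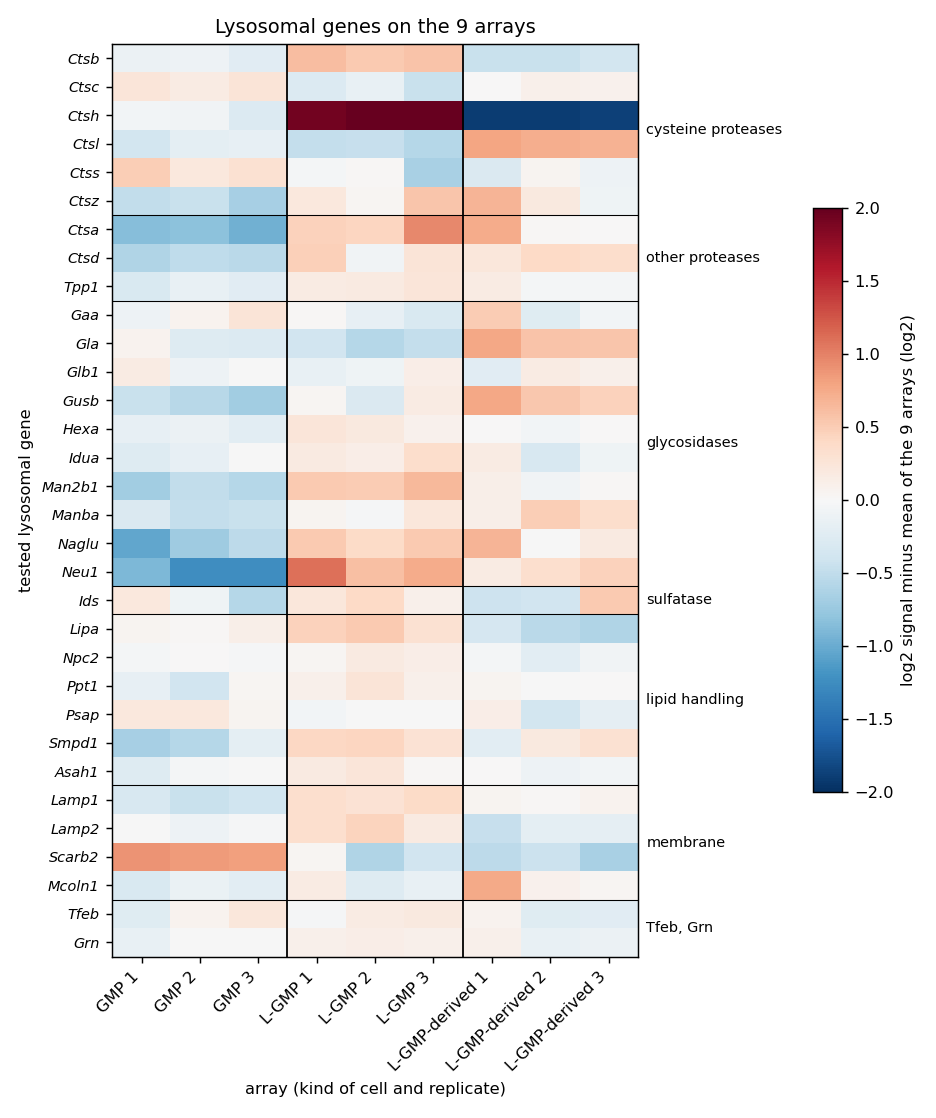
Heat map of the 32 tested lysosomal genes (rows, grouped by role) on the 9 arrays (columns). Colour gives the log2 signal minus the gene's mean over the 9 arrays, and colours end at 2 log2 units in each direction. Most rows are red in the L-GMP columns and blue in the GMP columns, and Ctsh has the strongest contrast.

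**Figure D2:**
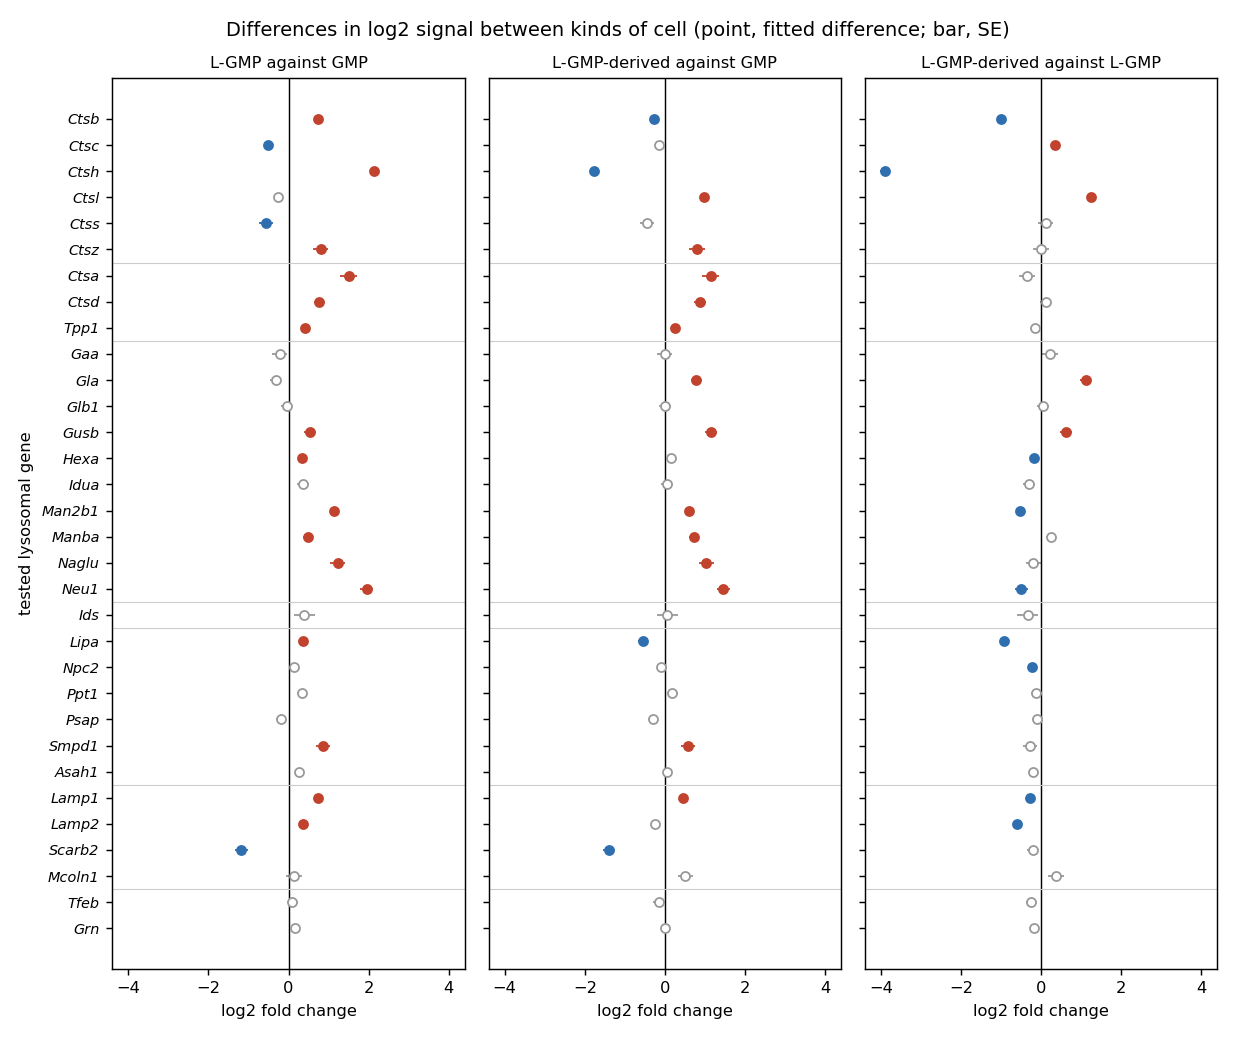
Fitted log2 difference (point) and its standard error (bar) of the 32 tested lysosomal genes in the 3 comparisons, 1 panel each. Red points were called higher, blue points lower, and open grey points were not called. In L-GMP against GMP 16 points are red and 3 blue, and in L-GMP-derived against L-GMP 4 are red and 9 blue.

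Of the 6 tested cysteine proteases, 3 were higher and 2 lower in L-GMP than in GMP, against 13.1% and 12.8% of all tested genes. No single pattern covered the family. Ctsh encodes cathepsin H, an aminopeptidase. Its signals were 513, 508 and 441 in GMP, 2022, 2209.8 and 2207 in L-GMP and 142, 143 and 145 in L-GMP-derived cells. L-GMP arrays were the highest and L-GMP-derived arrays the lowest, with no overlap between any groups. It was 4.41-fold higher in L-GMP than in GMP (log2 difference 2.14 ± 0.11 SE, adjusted p = 5.06e-07), 3.39-fold lower in L-GMP-derived cells than in GMP (adjusted p = 2.2e-06) and 14.97-fold lower in them than in L-GMP (adjusted p = 1.67e-08). Ctsb encodes cathepsin B, a broadly expressed endopeptidase and dipeptidase. Ctsb gave 2627, 2649.9 and 2435 in GMP, 4388, 4121 and 4259 in L-GMP and 2088, 2096 and 2211 in L-GMP-derived cells. The order of the groups was that of Ctsh on a smaller scale, again without overlap. Ctsb was 1.66-fold higher in L-GMP than in GMP (log2 difference 0.73 ± 0.06 SE, adjusted p = 2.31e-05), 1.997-fold lower in L-GMP-derived cells than in L-GMP (adjusted p = 2.92e-06) and 1.21-fold lower in them than in GMP (adjusted p = 0.011). The last of these calls ended without GMP replicate 2 (adjusted p = 0.0529) and when the probe sets of the gene were averaged (adjusted p = 0.205). Ctsz encodes the carboxypeptidase cathepsin Z. Its signals were 503, 517 and 447 in GMP, 813, 725 and 1040.4 in L-GMP and 1129, 806 and 663 in L-GMP-derived cells. Both leukemic kinds lay above GMP and overlapped each other. Ctsz was 1.74-fold higher in L-GMP (adjusted p = 0.0134) and 1.73-fold higher in L-GMP-derived cells (adjusted p = 0.0146). Both calls ended without GMP replicate 3 (adjusted p = 0.061 and 0.0653), and the first also without L-GMP replicate 3 (0.0532).

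Ctsl, for cathepsin L, an endopeptidase, was called higher in the cultured cells than in both other kinds. Its signals were 345, 386 and 397 in GMP, 320.3, 323 and 299 in L-GMP and 766, 736 and 721 in L-GMP-derived cells. The L-GMP-derived arrays lay above both other groups, which did not overlap each other. Ctsl was 1.97-fold higher in them than in GMP (log2 difference 0.98 ± 0.11 SE, adjusted p = 0.000117) and 2.36-fold higher than in L-GMP (adjusted p = 2.24e-05), while the log2 difference between L-GMP and GMP was -0.26 (adjusted p = 0.108). Ctsc, for cathepsin C, which activates the serine proteases of granules, was 1.42-fold lower in L-GMP (1943 ± 198) than in GMP (2742 ± 96.4; adjusted p = 0.00156), and 1.28-fold higher in L-GMP-derived cells than in L-GMP (adjusted p = 0.00946). Ctss, for cathepsin S, which processes the invariant chain of MHC class II, averaged 956 ± 226 in L-GMP and 1388 ± 144 in GMP. It was called 1.48-fold lower (adjusted p = 0.0401), a call lost on leaving out any 1 of 5 arrays, which were the 3 GMP arrays, L-GMP replicate 3 and L-GMP-derived replicate 3 (adjusted p from 0.0572 to 0.131). Lgmn, for legumain, an asparaginyl endopeptidase, did not pass the filter and ranged from -9.70 to 16.9.

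The 3 other proteases were all higher in both leukemic kinds than in GMP, and none was called between L-GMP and L-GMP-derived cells. Among all tested genes, 13.1% were higher in L-GMP and 13.4% in L-GMP-derived cells than in GMP. Between the leukemic kinds 16.6% were higher and 14.1% lower in L-GMP-derived cells. Ctsa encodes protective protein/cathepsin A, a serine carboxypeptidase that stabilizes beta-galactosidase and neuraminidase 1. Ctsa gave 182, 186 and 169.6 in GMP, 454, 441 and 643 in L-GMP and 554, 335 and 333 in L-GMP-derived cells. The GMP arrays were the lowest and spread little, whereas the leukemic arrays spread widely and overlapped each other. Ctsa was 2.82-fold higher in L-GMP (log2 difference 1.498 ± 0.21 SE, adjusted p = 0.000528) and 2.21-fold higher in L-GMP-derived cells (adjusted p = 0.003). Without L-GMP-derived replicate 1 it was also called lower in the cultured cells than in L-GMP (log2 difference -0.60, adjusted p = 0.0162). Ctsd encodes the aspartic protease cathepsin D. Its signals were 494, 529 and 520.2 in GMP, 1045, 717 and 900.2 in L-GMP and 879, 995 and 963 in L-GMP-derived cells. All 6 leukemic arrays lay above the GMP arrays. Ctsd was 1.71-fold higher in L-GMP (adjusted p = 0.00256) and 1.84-fold higher in L-GMP-derived cells (adjusted p = 0.00137). Tpp1, for tripeptidyl peptidase 1, averaged 2087 ± 112 in GMP, 2796 ± 87.4 in L-GMP and 2499 ± 212 in L-GMP-derived cells. It was 1.34-fold higher in L-GMP (adjusted p = 0.00307), a call that ended when its probe sets were averaged (log2 difference 0.23, adjusted p = 0.0741). In the cultured cells it was 1.20-fold higher than in GMP (adjusted p = 0.0388), but leaving out any 1 of 7 arrays ended that call, namely the 3 GMP arrays, L-GMP replicates 1 and 2, and L-GMP-derived replicates 1 and 3 (adjusted p from 0.0512 to 0.122).

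Glycosidases, which remove sugars from glycoproteins, glycolipids and glycosaminoglycans, were the largest group. Of the 10 tested, 6 were higher and 0 lower in L-GMP than in GMP, against 13.1% and 12.8% of all tested genes. The counts were also 6 and 0 in L-GMP-derived cells, against 13.4% and 10.7%. A total of 5 genes (Gusb, Man2b1, Manba, Naglu and Neu1) were in both counts, which share the GMP arrays. Man2b1 encodes lysosomal alpha-mannosidase. Its signals were 1473, 1702 and 1604 in GMP, 3442, 3377 and 3732 in L-GMP and 2586, 2259 and 2429 in L-GMP-derived cells. The 3 groups were fully separate, with L-GMP the highest and GMP the lowest. Man2b1 was 2.21-fold higher in L-GMP than in GMP (log2 difference 1.14 ± 0.08 SE, adjusted p = 6.64e-06), 1.52-fold higher in L-GMP-derived cells than in GMP (adjusted p = 0.000513) and 1.45-fold lower in them than in L-GMP (adjusted p = 0.000862). Averaging its probe sets ended the second of these calls (adjusted p = 0.102). Neu1 encodes neuraminidase 1, which removes sialic acid. Neu1 gave 79.3, 45.7 and 48.7 in GMP, 318, 226 and 248 in L-GMP and 167, 187 and 204 in L-GMP-derived cells. Of the GMP arrays, 2 lay under the floor of 62.4 to which low signals were raised, so folds against GMP are lower bounds. Neu1 was at least 3.86-fold higher in L-GMP (adjusted p = 1.96e-05) and at least 2.74-fold higher in L-GMP-derived cells (adjusted p = 0.000141). Between the leukemic kinds it was 1.41-fold lower in the cultured cells (adjusted p = 0.0445), a call that ended on leaving out any 1 of 7 arrays, all but GMP replicate 1 and L-GMP replicate 2 (adjusted p from 0.0575 to 0.154).

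Naglu, for alpha-N-acetylglucosaminidase of heparan sulfate breakdown, gave 82.2, 103 and 117 in GMP, 242, 218 and 241 in L-GMP and 268, 167 and 189 in L-GMP-derived cells. All leukemic arrays lay above the GMP arrays, which were dim. It was 2.35-fold higher in L-GMP (adjusted p = 0.000935) and 2.05-fold higher in L-GMP-derived cells (adjusted p = 0.00293). Manba encodes beta-mannosidase. Its signals were 734, 643 and 658 in GMP, 926, 878 and 1044 in L-GMP and 966, 1257 and 1140.0 in L-GMP-derived cells. GMP arrays were the lowest, and the leukemic groups overlapped. Manba was 1.40-fold higher in L-GMP (adjusted p = 0.0182) and 1.65-fold higher in L-GMP-derived cells (adjusted p = 0.00246). The first call ended without GMP replicate 2, GMP replicate 3 or L-GMP replicate 3 (adjusted p from 0.0676 to 0.0726). Hexa, for the alpha subunit of beta-hexosaminidase, was among the brightest members with 4210.1, 4354 and 4101 in GMP, 5583, 5443 and 5033 in L-GMP and 4768, 4565 and 4768 in L-GMP-derived cells. L-GMP arrays were the highest and did not overlap either other group. Hexa was 1.27-fold higher in L-GMP than in GMP (adjusted p = 0.000832) and 1.14-fold lower in L-GMP-derived cells than in L-GMP (adjusted p = 0.0198). The latter call ended without L-GMP replicate 1, L-GMP replicate 2 or L-GMP-derived replicate 2 (adjusted p from 0.0682 to 0.0748).

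Gusb and Gla, like Ctsl, were called higher in L-GMP-derived cells than in both other kinds. Gusb encodes beta-glucuronidase. Gusb gave 603, 560.2 and 506 in GMP, 842, 670.1 and 919 in L-GMP and 1396, 1186 and 1126 in L-GMP-derived cells. The groups lay in that ascending order without overlap. It was 2.22-fold higher in L-GMP-derived cells than in GMP (log2 difference 1.15 ± 0.15 SE, adjusted p = 0.000293) and 1.53-fold higher than in L-GMP (adjusted p = 0.00897). The 1.45-fold higher signal in L-GMP than in GMP (adjusted p = 0.0207) was no longer called without GMP replicate 2, GMP replicate 3, L-GMP replicate 1 or L-GMP replicate 3 (adjusted p from 0.061 to 0.0911), or when probe sets were averaged (0.0673). Gla encodes alpha-galactosidase A, which cleaves globotriaosylceramide. Its signals were 289, 230.1 and 227 in GMP, 210.4, 185 and 198 in L-GMP and 469.7, 407 and 402 in L-GMP-derived cells. The L-GMP-derived arrays were the highest and L-GMP arrays the lowest, with no overlap. Gla was 1.72-fold higher in L-GMP-derived cells than in GMP (log2 difference 0.78 ± 0.13 SE, adjusted p = 0.00173) and 2.16-fold higher than in L-GMP (adjusted p = 0.000151). Gaa, for acid alpha-glucosidase, which degrades glycogen, was not called in any comparison, with 584, 659 and 748 in GMP, 639.7, 558 and 509.6 in L-GMP and 890.3, 530.5 and 606 in L-GMP-derived cells. L-GMP-derived replicate 1 was the highest array and the 3 groups overlapped. This brightest Gaa probe set has a name ending in _x_at, which marks possible binding to related transcripts. A dimmer Gaa probe set without such a name was 1.62-fold higher in L-GMP-derived cells than in GMP (log2 difference 0.70 ± 0.16 SE, adjusted p = 0.0112). Glb1 (beta-galactosidase) and Idua (alpha-iduronidase), with signals of 498 to 653 and 213 to 341 over the 9 arrays, were not called in the 3 comparisons. The sulfatase gene Ids, for iduronate 2-sulfatase, ranged from 151 to 322 and was not called either. Without L-GMP-derived replicate 1, Idua was called higher in L-GMP than in GMP (adjusted p = 0.0455).

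**Figure D3:**
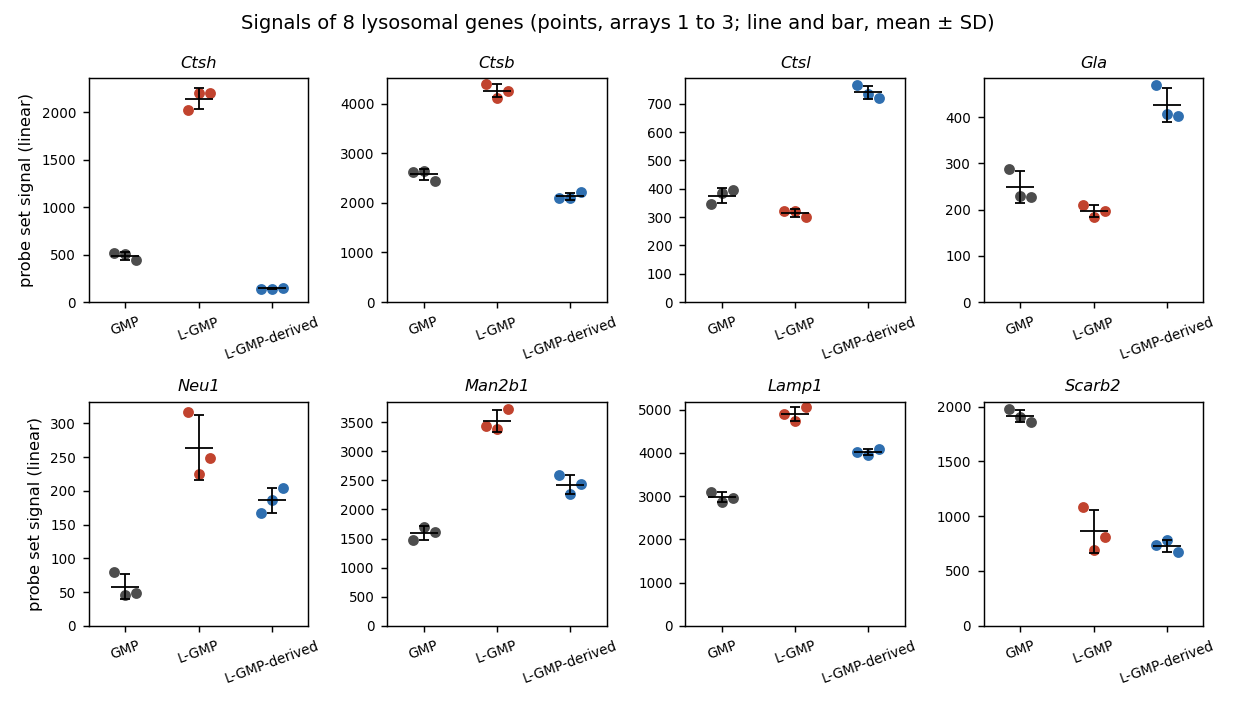
Linear signals of 8 lysosomal genes (Ctsh, Ctsb, Ctsl, Gla, Neu1, Man2b1, Lamp1 and Scarb2) on each array, with every axis starting at 0. Points are arrays 1 to 3 of a group, the line is the group mean and the bar its SD. Ctsh is highest in L-GMP and lowest in L-GMP-derived cells, Ctsl and Gla are highest in L-GMP-derived cells, and Scarb2 is highest in GMP.

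Of the 6 genes for lipid handling, 2 were higher in L-GMP than in GMP and 0 lower, against 13.1% and 12.8% of all tested genes. In L-GMP-derived cells 1 was higher and 1 lower than in GMP, near the 13.4% and 10.7% of all tested genes. Lipa encodes lysosomal acid lipase, which hydrolyses cholesteryl esters and triglycerides. Lipa gave 821, 802 and 857 in GMP, 1088, 1135 and 977 in L-GMP and 627, 544 and 519.6 in L-GMP-derived cells. The highest arrays were those of L-GMP and the lowest those of L-GMP-derived cells, without overlap. It was 1.90-fold lower in L-GMP-derived cells than in L-GMP (log2 difference -0.92 ± 0.11 SE, adjusted p = 0.00021) and 1.47-fold lower than in GMP (adjusted p = 0.00556). The 1.29-fold higher signal in L-GMP than in GMP (adjusted p = 0.0385) was no longer called without any 1 of 5 arrays, the 3 GMP arrays and L-GMP replicates 1 and 2 (adjusted p from 0.0864 to 0.124). Its brightest probe set has a name ending in _s_at; with another one in its place the log2 difference from GMP was 0.41 in L-GMP (adjusted p = 0.225) and -0.26 in L-GMP-derived cells (adjusted p = 0.451). Smpd1 encodes acid sphingomyelinase, which turns sphingomyelin into ceramide. Its signals were 67.2, 71.8 and 92.7 in GMP, 143, 144 and 131 in L-GMP and 92.5, 122 and 132 in L-GMP-derived cells. L-GMP arrays lay above the GMP arrays, while 1 L-GMP-derived array lay within the GMP range. Smpd1 was 1.82-fold higher in L-GMP (adjusted p = 0.00513). Its 1.49-fold higher signal in L-GMP-derived cells (adjusted p = 0.0384) was no longer called without any 1 of 7 arrays, all but GMP replicate 3 and L-GMP-derived replicate 1 (adjusted p from 0.0506 to 0.131). With the floor at the 40th percentile that log2 difference was 0.12 (adjusted p = 0.346). Npc2, a soluble carrier of cholesterol, was among the brightest at 6570.2 ± 94.3 in GMP, 7211 ± 368 in L-GMP and 6162 ± 361 in L-GMP-derived cells. Its only call on this probe set was 1.17-fold lower in L-GMP-derived cells than in L-GMP (adjusted p = 0.00695). Ppt1 (palmitoyl-protein thioesterase), Psap (prosaposin, the precursor of saposins) and Asah1 (acid ceramidase) were not called in the 3 comparisons, with signals of 248 to 387, 1890.0 to 2831 and 2000.4 to 2852 on their brightest probe sets. A second, dimmer Ppt1 probe set was 1.49-fold higher in L-GMP than in GMP (adjusted p = 0.0131), and averaging both gave a call there too (adjusted p = 0.0118). Asah1 was called higher in L-GMP without L-GMP-derived replicate 1 (adjusted p = 0.0426) or L-GMP replicate 3 (0.0383). Without L-GMP-derived replicate 1, Psap was called lower in the cultured cells than in GMP (adjusted p = 0.00266).

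Among the 4 tested membrane proteins, 2 were higher and 1 lower in L-GMP than in GMP, against 13.1% and 12.8% of all tested genes. Lamp1, one of the most abundant glycoproteins of the lysosomal membrane, gave 3099, 2869.9 and 2947 in GMP, 4914, 4748 and 5064 in L-GMP and 4027, 3963 and 4103 in L-GMP-derived cells. The 3 groups were fully separate and each was tight. Lamp1 was 1.65-fold higher in L-GMP than in GMP (log2 difference 0.72 ± 0.05 SE, adjusted p = 6.01e-06), 1.36-fold higher in L-GMP-derived cells than in GMP (adjusted p = 0.000189) and 1.22-fold lower in them than in L-GMP (adjusted p = 0.00224). Lamp2, its relative with a further role in autophagy, gave 3715, 3476 and 3666 in GMP, 4708, 5046 and 4235 in L-GMP and 2705, 3257 and 3296 in L-GMP-derived cells. L-GMP arrays were the highest and L-GMP-derived arrays the lowest, without overlap. Lamp2 was 1.51-fold lower in L-GMP-derived cells than in L-GMP (log2 difference -0.60 ± 0.09 SE, adjusted p = 0.000629) and 1.29-fold higher in L-GMP than in GMP (adjusted p = 0.0122). The latter call ended without GMP replicate 2 or L-GMP replicate 2 (adjusted p = 0.0531 and 0.0516). Scarb2 encodes LIMP-2, which carries beta-glucocerebrosidase to lysosomes, and ran the other way. Its signals were 1976, 1904 and 1863 in GMP, 1082, 695 and 808 in L-GMP and 739, 783 and 675 in L-GMP-derived cells. All GMP arrays lay above all leukemic arrays, and the leukemic groups overlapped. Scarb2 was 2.26-fold lower in L-GMP (log2 difference -1.18 ± 0.15 SE, adjusted p = 0.000285) and 2.62-fold lower in L-GMP-derived cells (adjusted p = 0.000109).

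Mcoln1, the calcium channel TRPML1, gave 492, 549 and 522 in GMP, 682, 506 and 548 in L-GMP and 1024, 639.7 and 624 in L-GMP-derived cells. L-GMP-derived replicate 1 was by far the highest, the 3 GMP arrays lay below the cultured cells, and no comparison was called. The name of this probe set ends in _s_at. The other tested Mcoln1 probe set gave 196, 182 and 159 in GMP, 176, 156 and 211 in L-GMP and 143, 112 and 139.9 in L-GMP-derived cells, with the L-GMP-derived arrays lowest, and was not called either (adjusted p = 0.0631 against GMP). Npc1, the membrane partner of Npc2 in cholesterol export, was too dim to be tested, with 61.0, 37.7 and 51.2 in GMP, 81.4, 58.6 and 80.4 in L-GMP and 94.7, 132 and 105 in L-GMP-derived cells. The 3 brightest of these were the L-GMP-derived arrays. Tfeb gave 631, 786 and 868 in GMP, 735, 838 and 854 in L-GMP and 782, 631 and 639 in L-GMP-derived cells. The groups overlapped, and no difference in Tfeb mRNA was called; its log2 difference was 0.10 ± 0.15 SE in L-GMP against GMP. Grn encodes progranulin, a secreted and lysosomal glycoprotein. Its brightest probe set, with a name ending in _x_at, gave 8909, 9785 and 9805 in GMP, 10639, 10867 and 10587 in L-GMP and 10565, 8911 and 9097 in L-GMP-derived cells. These signals were near the highest on the arrays, where the maximum was 12696 to 13440.4, and the log2 difference of L-GMP against GMP was 0.17 ± 0.06 SE (adjusted p = 0.0592). That difference was called without L-GMP-derived replicate 1 (adjusted p = 0.00491).

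Several probe sets of one gene read different stretches of its transcript, and they did not always give the same size. Of the 51 tested probe sets, 30 were higher and 3 lower in L-GMP than in GMP, against 13.4% and 12.6% of all tested probe sets. In L-GMP-derived cells 16 were higher and 6 lower than in GMP, against 14.0% and 10.4%. Relative to L-GMP, 4 were higher and 19 lower in L-GMP-derived cells, against 16.4% and 13.5%. These counts give more weight to genes with several probe sets. Some dim probe sets passed the filter through leukemic arrays alone. Second probe sets of Idua and Man2b1, both called higher in L-GMP than in GMP, had 0 GMP arrays above it. For 13 genes at least 2 probe sets were tested. In L-GMP against GMP the probe sets of 6 of these genes had the same call, those of 7 were called for some and not for others, and for 0 genes they were called in opposite directions. The corresponding numbers were 6, 7 and 0 in L-GMP-derived cells against GMP and 11, 2 and 0 against L-GMP. Grn had the widest gap between probe sets in L-GMP against GMP: its dimmest tested one gave 320.3, 331 and 338 in GMP, 1055, 931 and 1105 in L-GMP and 691, 408 and 364 in L-GMP-derived cells. Its highest signals were in L-GMP, without overlap, and the difference from GMP was 3.12-fold (adjusted p = 0.000257), far from that of the bright probe set. For Lamp2, the dimmest probe set was 3.35-fold higher in L-GMP (adjusted p = 0.000185), against 1.29-fold for the bright one. That dimmest one had 1 GMP array above the filter. A second, dimmer Npc2 probe set was 1.64-fold higher in L-GMP than in GMP (adjusted p = 0.000768). The 3 tested Ctsb probe sets were all higher in L-GMP than in GMP, by 1.66-fold, 2.07-fold and 2.76-fold. All were lower in L-GMP-derived cells than in L-GMP. The last 2 had 1 and 0 GMP arrays above the filter and 3 L-GMP arrays each, so L-GMP let them pass it. In L-GMP-derived cells against GMP the 3 log2 differences were -0.27, -0.68 and 0.25, and the last was not called. A dim second probe set of Scarb2 was not called in any comparison (log2 difference -0.05 ± 0.30 SE in L-GMP against GMP).

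**Figure D4:**
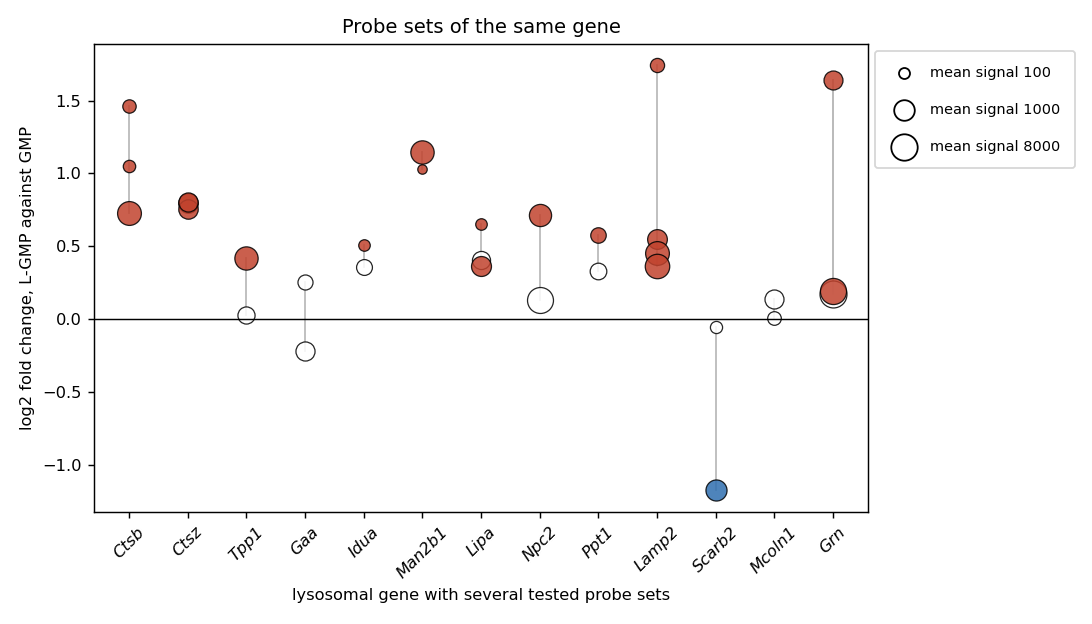
Log2 difference of L-GMP against GMP for each tested probe set of the 13 lysosomal genes with several of them. The area of a circle grows with the log2 of its mean signal, red circles were called higher, blue lower and white ones were not called, and a grey line joins the probe sets of a gene. Grn and Lamp2 have a small bright-probe difference and a larger one on a dimmer probe set.

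Genes that work with the lysosomal set were described from fixed lists. Over all tested genes 13.1% were higher and 12.8% lower in L-GMP than in GMP. The shares were 13.4% and 10.7% in L-GMP-derived cells against GMP, and 16.6% and 14.1% against L-GMP. Of 20 tested other lysosomal enzymes, 5 were higher and 2 lower in L-GMP than in GMP, 4 higher and 3 lower in L-GMP-derived cells than in GMP, and 1 higher and 9 lower in L-GMP-derived cells than in L-GMP. Dnase2a, for the acid DNase, gave 453, 548 and 592 in GMP, 221, 227 and 225 in L-GMP and 108, 31.9 and 45.7 in L-GMP-derived cells. GMP arrays were the highest and L-GMP-derived arrays the lowest, and the gene was 2.35-fold lower in L-GMP than in GMP (adjusted p = 0.00136). Its probe set name ends in _x_at. Scpep1, for a serine carboxypeptidase, was the higher gene of the last comparison, with 1466 ± 297 in L-GMP-derived cells against 491 ± 57.7 in L-GMP (adjusted p = 0.000159). Of 14 other lysosomal membrane proteins, 4 were higher and 0 lower in L-GMP, 3 higher and 1 lower in L-GMP-derived cells than in GMP, and 2 higher and 6 lower than in L-GMP. Cd68, a heavily glycosylated lysosomal protein used as a macrophage marker, gave 103, 102 and 89.3 in GMP, 379.8, 358 and 377 in L-GMP and 175, 228 and 240.2 in L-GMP-derived cells. All L-GMP arrays were above the others and GMP arrays the lowest, with a 3.80-fold difference between L-GMP and GMP (adjusted p = 6.04e-06). No GMP array was above the filter, and Cd68 passed it only through the other groups. Hgsnat, an acetyltransferase of heparan sulfate breakdown, was 1.91-fold higher in L-GMP (adjusted p = 0.00363) and 2.11-fold higher in L-GMP-derived cells (adjusted p = 0.00183) than in GMP.

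The vacuolar ATPase pumps the protons that acidify the lysosome. Of its 15 tested subunits, 9 were higher and 1 lower in L-GMP than in GMP, against 13.1% and 12.8% of all tested genes. The median log2 difference of the subunits was 0.56. In L-GMP-derived cells 5 were higher and 3 lower than in GMP, and 0 higher and 6 lower than in L-GMP. Atp6v0d1, a subunit of the membrane sector, gave 218, 257 and 158 in GMP, 648, 554 and 624 in L-GMP and 322, 359 and 321 in L-GMP-derived cells. L-GMP arrays were the highest and GMP arrays the lowest, without overlap, with a 2.94-fold difference between these groups (adjusted p = 9.69e-05). Of 11 genes for mannose 6-phosphate tagging and sorting, 3 were higher and 0 lower in L-GMP, 2 higher and 0 lower in L-GMP-derived cells than in GMP, and 0 higher and 1 lower than in L-GMP. Igf2r, the large mannose 6-phosphate receptor, averaged 357 ± 71.0 in L-GMP-derived cells against 84.1 ± 7.85 in GMP (adjusted p = 0.00915), with no GMP array above the filter. The Igf2r call ended without the filter (adjusted p = 0.0606) and when arrays of the same replicate number were taken as a block (0.0932). Of 16 MiT/TFE and mTORC1 regulators, 3 were higher and 2 lower in L-GMP than in GMP. In L-GMP-derived cells 1 was higher and 2 were lower than in GMP, and 0 higher and 3 lower than in L-GMP. The counts of these regulators against GMP were near the shares over all tested genes. Mitf, a relative of Tfeb, gave 469, 469 and 479.7 in GMP, 185, 175 and 149 in L-GMP and 145, 160.0 and 161 in L-GMP-derived cells. All GMP arrays lay above all leukemic arrays, a 2.80-fold lower signal in L-GMP (adjusted p = 1.23e-05) and 3.05-fold in L-GMP-derived cells (adjusted p = 6.73e-06). These list counts are small and moved with single arrays. Without L-GMP-derived replicate 1, the genes higher in L-GMP-derived cells than in GMP numbered 3 for the other enzymes, 4 for the membrane proteins, 6 for the ATPase, 4 for mannose 6-phosphate sorting and 2 for the regulators; the lower ones numbered 3, 1, 2, 0 and 2. Relative to L-GMP, 8, 7, 6, 2 and 2 genes were then lower. Over all tested genes 18% were then higher and 12.3% lower than in GMP, and 16.9% lower than in L-GMP. Leaving out any 1 array gave 8 to 10 higher ATPase subunits in L-GMP against GMP and 2 to 6 in L-GMP-derived cells against GMP, the lowest count coming without GMP replicate 3 or L-GMP-derived replicate 2.

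**Figure D5:**
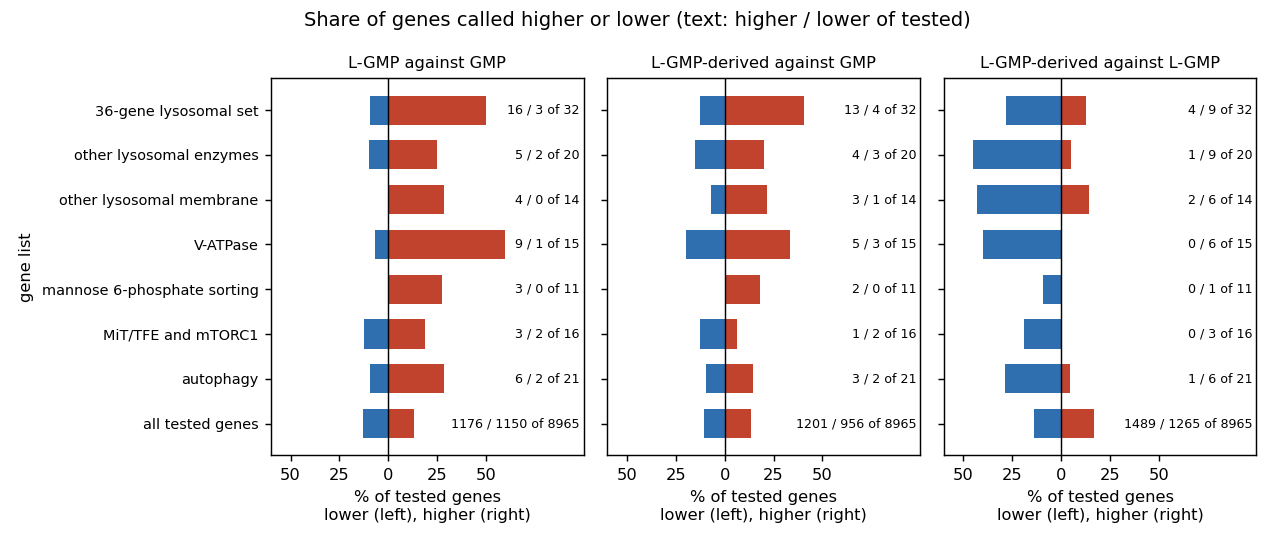
Share of the tested genes of each list called higher (red, to the right) or lower (blue, to the left) in the 3 comparisons, with the counts of higher, lower and tested genes printed at the right. The lowest bar is all 8965 tested genes. In L-GMP against GMP 16 of the 32 lysosomal genes and 9 of the 15 vacuolar ATPase subunits were higher.

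Markers of mature myeloid cells, which are rich in lysosomes, also differed between the kinds of cell. Cd68 is among the monocyte and macrophage markers and among the lysosomal membrane proteins above, so it counts in both lists. Over all tested genes 13.1% were higher and 12.8% lower in L-GMP than in GMP. The shares were 13.4% and 10.7% in L-GMP-derived cells against GMP, and 16.6% and 14.1% against L-GMP. Of 14 monocyte and macrophage markers with a probe set, the summed signal was 6349.9 to 7014 in GMP, 7213 to 8479.5 in L-GMP and 5281 to 5592 in L-GMP-derived cells. Of the 8 tested, 3 (Adgre1, Cd68 and C1qb) were higher and 1 lower in L-GMP than in GMP, 2 (Adgre1 and Cd68) were higher and 1 lower in L-GMP-derived cells than in GMP, and 0 higher and 2 lower than in L-GMP. That call of Adgre1 ended without any 1 GMP array (adjusted p from 0.0758 to 0.0932) and without L-GMP-derived replicate 2 or 3 (0.114 and 0.119). With L-GMP-derived replicate 1 left out, 4 of the 8 were higher and 1 lower in L-GMP-derived cells than in GMP. The shares over all tested genes were then 18% and 12.3%. Mrc1, the macrophage mannose receptor, lay under the floor on all 9 arrays. The summed signal of 11 mast cell, eosinophil and basophil markers was 2922 to 3002 in GMP, 5691 to 8092 in L-GMP and 822 to 1098 in L-GMP-derived cells; of the 8 tested, 2 were higher and 1 lower in L-GMP than in GMP, and 0 higher and 5 lower in L-GMP-derived cells than in GMP. That of 9 neutrophil markers was 9056 to 22689 in GMP, 17929 to 36735 in L-GMP and 975 to 8499.5 in L-GMP-derived cells. Of the 6 tested, 0 were called in L-GMP against GMP and 3 (Camp, S100a8 and S100a9) were lower in L-GMP-derived cells than in L-GMP. The calls of S100a8 and S100a9 ended without any 1 L-GMP array (adjusted p from 0.057 to 0.0656 and from 0.0703 to 0.138), and that of S100a9 also without any 1 GMP array (from 0.0562 to 0.0701). In L-GMP against GMP, 2 neutrophil markers were called higher once L-GMP-derived replicate 1 was left out, as were 16.9% of all tested genes. All 3 sums were lowest in L-GMP-derived cells. The first and second were highest in L-GMP without overlap, the order also seen for Ctsh, Ctsb, Lipa, Lamp2 and Npc2. GMP was lowest instead for 18 of the 32 tested lysosomal genes. A linear sum follows its brightest genes, and the single markers did not share 1 order. Of the 8 tested monocyte and macrophage markers, 4 lay above and 4 below GMP in L-GMP. In L-GMP-derived cells 5 lay above and 3 below GMP, with a median log2 difference of 0.33. Of the 8 tested mast cell, eosinophil and basophil markers, 4 lay above and 4 below GMP in L-GMP. The neutrophil sums of GMP and L-GMP overlapped. Markers of dendritic cells and MHC class II ran otherwise. Their sums were 1457 to 1554 in GMP, 936 to 1142 in L-GMP and 1095 to 1368 in L-GMP-derived cells. Of the 4 tested, 0 were higher and 2 lower in L-GMP than in GMP. The part of such cells in the lysosomal results was not tested, and in bulk samples fewer cells of a type and less RNA per cell cannot be told apart.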

How the data were processed

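The authors deposited a table of array intensities, 1 linear signal per probe set and array, for 22690 probe sets on 9 arrays. MAS5 (version 5) was used per the submitters' processing notes; the sources used here do not state how background, probe summary and scaling were handled. Of 204210 values, 1917 (0.939%) are negative, and MAS5's own signal algorithm gives none, so the summary step is unknown. No detection calls were used.

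A floor was set at 62.4 (25th percentile of the values), lower signals were raised to it, and log2 was taken. This understates the folds of dim genes. The 64 control probe sets were left out, and the 14578 that exceeded 111 (40th percentile) on 3 or more arrays were tested with limma 3.58.1 in R 4.3.3 (lmFit, contrasts.fit, eBayes with intensity trend, two-sided, 6 residual degrees of freedom) on all 9 arrays together. Adjustment was by Benjamini-Hochberg across the tested probe sets, per comparison, with a threshold of 0.05. Folds are between mean log2 signals. Gene symbols come from the platform annotation (20393 probe sets with 1 symbol, 691 with several, 1606 with none listed), and only probe sets with 1 symbol were named. The fit was tested on simulated data.

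The members and lists were chosen with earlier results of these data known. Genes called with at least a 1.5-fold difference in any comparison, and 11 fixed genes, are given on every array, and from each other list some of the up to 3 called genes with the largest difference. Alternatives covered the scaling, floor, filter, intensity trend, arrays in the fit, array weights, probe set choice, a minimum fold, leaving out each array and a replicate block. Same-numbered arrays did not deviate together (correlations of deviations -0.309 to 0.17), and the numbers were not taken to pair arrays.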

Additional observations from a re-analysis of the deposited data

Results flagged for a closer look

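Ctsh, Ctsb and Lipa were called in opposite directions against GMP in the 2 leukemic kinds, and were also called between those kinds. They are named here because of these 3 calls. The difference between the kinds is the difference of the values against GMP, and its call was part of the choice. It is therefore given here as a description, and its p-values in the paragraphs above add no separate evidence. For Ctsh the log2 difference from GMP was 2.14 in L-GMP and -1.76 in L-GMP-derived cells, which differ by -3.90. For Ctsb the values were 0.73 and -0.27, with a difference of -0.998. The Ctsb call in L-GMP-derived cells ended without GMP replicate 2 (limma, adjusted p = 0.0529) and when probe sets were averaged (0.205). For Lipa the values were 0.37 and -0.56, with a difference of -0.92. The Lipa call in L-GMP ended without any 1 of 5 arrays (adjusted p from 0.0864 to 0.124), and both Lipa calls ended with another probe set in place of the brightest one (0.225 and 0.451). On the brightest probe set of each gene the 3 arrays of every group lay apart from those of the other groups. A dimmer Ctsb probe set overlapped between L-GMP-derived cells and GMP, with a log2 difference of 0.25 (limma, adjusted p = 0.46). The other tested Lipa probe sets overlapped there as well. Both differences from GMP use the same GMP arrays. Groups of 3 arrays were too small for a test of single outlying arrays.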

How the results depend on the processing

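Member counts moved with the settings. In L-GMP against GMP, 16 members were higher and 3 lower. Leaving out 1 array gave 12 to 20 and 2 to 3, the replicate block 9 higher, and a minimum of 1.5-fold 10 and 1. Of all genes, 6.98% were higher with the replicate block, and 8.11% higher and 7.24% lower with the minimum fold. In L-GMP-derived cells against GMP, 13 were higher and 4 lower. Leaving out 1 array gave 11 to 13 and 3 to 5, and array weights 8 lower, against 21.6% of all genes. Averaging a gene's probe sets, the replicate block and the minimum fold gave 2 lower each, against 10.5%, 5.88% and 6.73% of all genes. Against L-GMP, 4 were higher and 9 lower. Leaving out 1 array gave 4 to 5 and 7 to 13, and array weights 14 lower, against 20.8% of all genes. The minimum fold gave 3 higher and 4 lower, against 9.76% and 8.68% of all genes. Without probe sets named _x_at or _s_at, Gaa (-0.003 with all probe sets) was 0.70 in L-GMP-derived cells against GMP (adjusted p = 0.0112) and Wipi1 (1.34 with all) was -0.25 (adjusted p = 0.261), since another probe set then represents the gene. For the other changes the cause was not tested. Over all genes, 1176 higher and 1150 lower in L-GMP against GMP became 626 to 1583 and 556 to 1730 over the alternatives, 1201 and 956 in L-GMP-derived cells against GMP became 535 to 2295 and 527 to 1932, and 1489 and 1265 against L-GMP became 875 to 2181 and 778 to 1869. In a paired reading of the replicate numbers (the replicate block), 8 arrays had a number. Member calls that held in every alternative without a minimum fold in which the gene was tested were counted. They numbered 11 of 19 in L-GMP against GMP, 11 of 17 in L-GMP-derived cells against GMP and 10 of 13 against L-GMP. Neu1, in both counts against GMP, and Smpd1, in the first, were tested in only 21 of the 22 alternatives. Signals near the floor limit the precision of Neu1, Naglu, Smpd1 and Npc1, and no depth can be given for arrays.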

Other observations

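Inhibitors of lysosomal cysteine proteases differed between the kinds of cell. Stfa3, a stefin of myeloid cells, gave 15.9, 11.5 and 13.8 in GMP, 969, 240.5 and 214 in L-GMP and 14.0, 51.8 and 40.7 in L-GMP-derived cells. All L-GMP arrays lay above all others, and replicate 1 was the brightest. All GMP and L-GMP-derived arrays lay under the floor of 62.4, and the gene passed the filter only through L-GMP. Cst7, for cystatin F, which is stored in granules and lysosomes, was 3.32-fold lower in L-GMP than in GMP (adjusted p = 3.73e-05) and 1.96-fold higher in L-GMP-derived cells than in L-GMP (adjusted p = 0.00134). Of the 4 tested inhibitors, 3 were higher and 1 lower in L-GMP than in GMP. In L-GMP-derived cells 1 was higher and 1 lower than in GMP, and 2 were higher and 2 lower than in L-GMP. Over all tested genes the shares in the same order were 13.1% and 12.8%, 13.4% and 10.7%, and 16.6% and 14.1%.

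Of 21 tested autophagy genes, 6 were higher and 2 lower in L-GMP than in GMP. In L-GMP-derived cells 3 were higher and 2 lower than in GMP, and 1 was higher and 6 were lower than in L-GMP. The shares over all tested genes were those given for the inhibitors. Gabarap, a ubiquitin-like protein of autophagosome membranes, was 1.81-fold higher in L-GMP than in GMP (adjusted p = 0.000376) and 2.19-fold lower in L-GMP-derived cells than in L-GMP (adjusted p = 5.83e-05). Wipi1, which binds phosphatidylinositol 3-phosphate on forming autophagosomes, gave 275, 301 and 318 in GMP, 1389, 1446 and 1023 in L-GMP and 577, 814 and 918 in L-GMP-derived cells. L-GMP arrays were the highest and GMP arrays the lowest, and the gene was 4.27-fold higher in L-GMP than in GMP (adjusted p = 2.91e-05). Another probe set, used when those with possible binding to related transcripts were left out, gave a log2 difference of 0.21 there (adjusted p = 0.35).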
